A study of Mus musculus with 8 samples.

Results

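T cells and natural killer (NK) cells were followed in whole liver through 10 genes that mark them, Cd3e, Cd3g, Cd4, Cd8a, Cd2, Gzma, Gzmb, Nkg7, Klrb1c and Ptprc, which were taken by symbol from the 24451 genes of the deposited table. All 10 were found and all 10 passed the filter on low values. The livers (left lobe) came from 4 mice labelled Brap liver knockout (Brap fl/fl; Alb Cre+), called Brap LKO, and 4 mice labelled wild type (Brap fl/fl; Alb Cre-), called Brap F/F. All 8 mice were labelled C57BL/6 (C57BL/6J in the study's methods), 18 wk old and fasted for 6 h, and the study states that its mice were male. Both groups carry the floxed Brap allele, and Cre is driven by the albumin promoter, which is active in hepatocytes and not in lymphocytes, so the deletion is directed at hepatocytes and not at the cells that these genes mark. Each liver is a separate mouse.

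T cells recognize antigen through the T cell receptor, whose signal is carried by the CD3 chains, while CD4 and CD8 bind the antigen-presenting MHC molecule and separate helper from cytotoxic T cells. NK cells kill without such a receptor and, like cytotoxic T cells, store granzymes in granules. Mouse liver is rich in NK cells, other innate lymphocytes and NKT cells, which lie in its sinusoids beside Kupffer cells. In bulk tissue, fewer cells of a type and less RNA per cell cannot be told apart.

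Gene counts summed to 26280884 reads in the shallowest liver and to 33313914 in the deepest. Brap itself, the targeted gene, stood at normalized counts of 3641 to 4203 in Brap LKO livers and 3994 to 4410 in Brap F/F livers, with overlap (limma adjusted p = 0.631, log2 fold change -0.07). The table gives 1 value per gene, reads on the floxed exons were not analysed here, and Brap therefore did not check the labels. Of 15352 genes tested with limma on log2(normalized count + 1), 118 (0.769%) passed a Benjamini-Hochberg adjusted p-value of 0.05, with 102 higher and 16 lower in Brap LKO livers. The added 1 draws the fold of a gene with few reads toward 0. Such a log2 fold change can still exceed that of a count test, as for Cd8a (1.61 with limma, 1.47 with DESeq2).

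None (0) of the 10 T and NK cell genes passed the threshold with limma, where 0.664% of all genes tested passed it as higher and 0.104% as lower. The fitted value was above 0 for 9 of the 10 genes, against 48.0% of all genes tested, and the exception was Klrb1c. Their median log2 fold change was 0.60, against -0.01 over all genes tested. At an unadjusted p-value under 0.05, 2 of them, Ptprc and Cd8a, were higher in Brap LKO livers (9.23% of all genes tested) and 0 were lower (6.59%). With count tests on the recovered reads, edgeR's quasi-likelihood test called 0 of the 10 and DESeq2 called 1, Ptprc. Every Brap LKO liver exceeded every Brap F/F liver for 1 of the 10, again Ptprc, and the opposite held for 0, against 5.48% and 4.39% of all genes tested (9.87% in either direction).

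**Figure D1:**
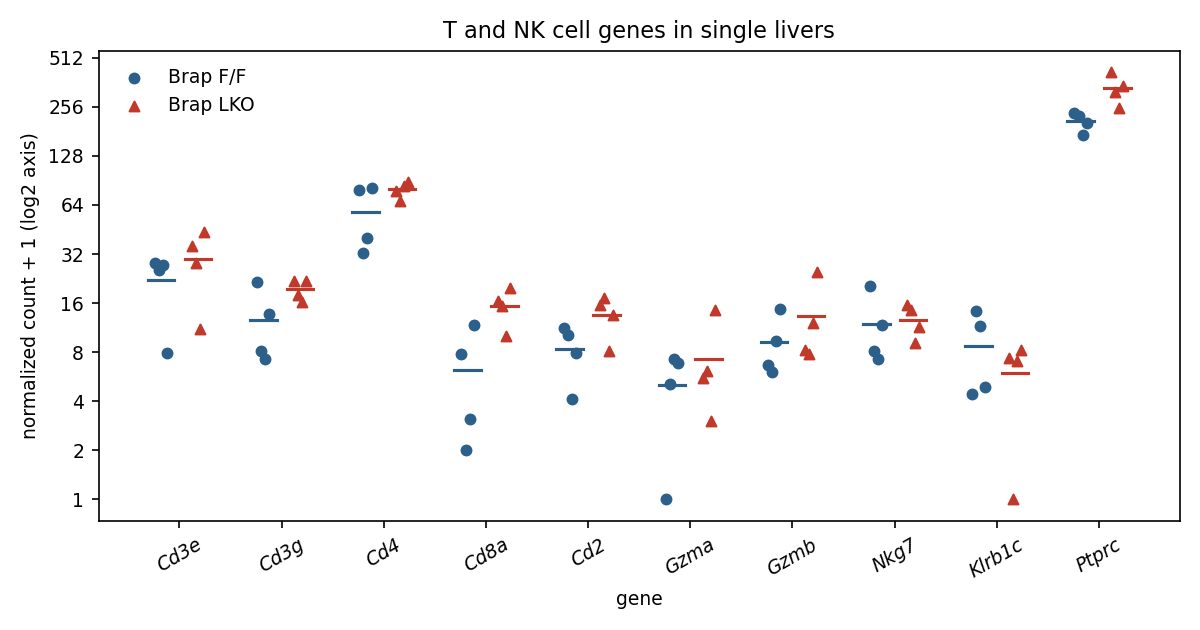
Normalized counts plus 1 (log2 axis) of the 10 genes in each of 4 Brap F/F (circles) and 4 Brap LKO (triangles) livers, with a bar at the mean of each group. The groups are apart for Ptprc and overlap for the other 9 genes.

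The members were sparse. The 9 genes other than Ptprc together took 150 to 228 reads in a Brap LKO liver and 101 to 155 in a Brap F/F liver. A gene with 0 reads in a liver could have had up to 3 at this depth. Per kilobase of transcript, the level was highest for Ptprc, with 41.0 ± 5.43 normalized counts per kilobase in Brap F/F livers and 65.3 ± 13.5 in Brap LKO livers (SD, n = 4 each). In Brap F/F livers Cd4 followed at 18.4 ± 8.20 per kilobase, then Cd3e (14.5 ± 6.60), Nkg7 (12.4 ± 6.79), Cd3g (11.4 ± 6.41), Cd2 (6.38 ± 2.72), Gzmb (5.73 ± 2.75), Klrb1c (4.69 ± 2.93), Gzma (4.63 ± 3.28) and Cd8a (1.66 ± 1.44). In this order, Ptprc and Cd4 were apart in every liver, and the ranges of all other neighbours overlapped. In Brap LKO livers the first 3 places were the same and Klrb1c was last, at 2.97 ± 2.01 per kilobase, behind Cd8a at 4.62 ± 1.28, and again Ptprc and Cd4 alone among neighbours did not overlap.

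Ptprc encodes CD45, the receptor tyrosine phosphatase that sits on all nucleated blood cells and sets the activity of Src family kinases in T cells. Its promoter is shown because it is the only one of the 10 genes whose groups were apart, and that of Cd8a because Cd8a had the largest fitted difference. Both are RefSeq sequences of 300 bases on GRCm38, from 250 bases before to 50 after the start, at chr1:138175256-138175555 on the minus strand and chr6:71373177-71373476 on the plus strand. Capitals mark the letters AGGAAG or their reverse complement CTTCCT, a core that ETS factors such as PU.1 bind, and TGTGGT or ACCACA, a core for RUNX factors.
Ptprc: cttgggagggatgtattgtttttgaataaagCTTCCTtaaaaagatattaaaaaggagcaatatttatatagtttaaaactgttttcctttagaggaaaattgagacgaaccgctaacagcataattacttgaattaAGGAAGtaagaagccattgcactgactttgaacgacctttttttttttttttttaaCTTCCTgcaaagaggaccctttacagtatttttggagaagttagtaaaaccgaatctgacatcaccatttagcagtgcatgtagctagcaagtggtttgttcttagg
Cd8a: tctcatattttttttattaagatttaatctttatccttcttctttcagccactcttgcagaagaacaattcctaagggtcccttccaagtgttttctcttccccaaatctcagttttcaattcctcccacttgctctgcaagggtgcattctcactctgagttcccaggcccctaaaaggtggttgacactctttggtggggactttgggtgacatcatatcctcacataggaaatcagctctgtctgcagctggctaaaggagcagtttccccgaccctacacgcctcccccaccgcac
The Ptprc window is the first of 2 RefSeq promoter entries for the gene, and its start lies inside the gene span of the annotation. It holds the ETS letters at 3 places, which start 219, 113 and 57 bases before that start, and no RUNX letters, while the second entry holds the ETS letters at 1 place. The Cd8a window holds neither. A promoter sequence was found for 8 of the 10 genes. Of these, 4 hold the ETS letters and 4 the RUNX letters, where 35.4% and 16.8% of all 32851 promoter windows do. Such matches are descriptions of letters and were not tested for binding.

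Ptprc (ENSMUSG00000026395) spans 138062861 to 138175708 of chromosome 1 on mm10. Its normalized counts were 417, 316, 251 and 341 in Brap LKO replicates 1 to 4 and 234, 224, 171 and 203 in Brap F/F replicates 1 to 4. The lowest Brap LKO liver, replicate 3, lay just above the highest Brap F/F liver, replicate 1. The mean was 331 ± 68.7 against 208 ± 27.6 (SD, n = 4 each), a ratio of 1.59. Its log2 fold change of 0.66 (standard error 0.161, 95% confidence interval 0.29 to 1.02) did not pass the threshold with limma (adjusted p = 0.103), and the two-sided exact permutation test gave p = 0.0286, the smallest that 4 livers against 4 allow. DESeq2 on the recovered reads put it past the threshold (log2 fold change 0.67, adjusted p = 0.00898), as it did 3.02% of the genes with an adjusted p as higher, and so did limma with every liver scaled to the same total (0.81, adjusted p = 0.0447), a scaling that shifted the median over all genes to 0.15.

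Because CD45 is not limited to lymphocytes, 10 further genes shared by all or most leukocytes were set beside it. All 10 had a fitted value above 0 (48.0% of all genes tested; median log2 fold change 0.41), none (0) passed the threshold with limma or edgeR, and 5 were higher at an unadjusted p-value under 0.05 (9.23% of all genes). Groups were apart, with Brap LKO above, for 3 of them (5.48% of all genes). Coro1a, a coronin of the leukocyte cortex, stood at 164 ± 19.2 and 106 ± 14.8 normalized counts in Brap LKO and Brap F/F livers (limma adjusted p = 0.0876, log2 fold change 0.63). Cd52, a small glycoprotein anchored on lymphocytes and other leukocytes, stood at 114 ± 16.2 and 77.1 ± 14.2, and Arhgap45 at 439 ± 32.5 and 344 ± 28.4. Of the exon bases of Cd52, 14.5% overlap Crybg2 on the opposite strand, and whether counting used strand is not given. The most abundant of the list by normalized count, Lcp1, an actin bundling protein, had a log2 fold change of 0.09, and Laptm5, a lysosomal protein of blood cells, one of 0.52 (adjusted p = 0.129 from limma). Per kilobase, Lcp1 stood at 745 and Ptprc at 53.1 normalized counts over the 8 livers. Which cells carried the Lcp1 reads was not measured. DESeq2 called 3 of the 10 as higher, Coro1a, Laptm5 and Arhgap45, where it called 3.02% of all genes with an adjusted p as higher.

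Markers of other leukocytes gave these values beside Ptprc and its companions. The summed normalized count of 9 B and plasma cell markers was 148 to 275 in Brap LKO livers and 108 to 143 in Brap F/F livers, with 8 of 9 fitted higher (48.0% of all genes tested). That of 7 dendritic cell markers was 374 to 465 and 316 to 412, with 5 of 6 tested fitted higher. That of 10 macrophage and monocyte markers was 5985 to 11010 and 6372 to 8827, with 9 of 10 fitted higher, and that of 7 neutrophil markers was 78.9 to 116 and 36.8 to 119. No marker was at 0 in all livers, and the neutrophil marker Ly6g had at most 1 read in any liver. The share of these cells in the Ptprc values was not tested. Tested were 9 B and plasma cell, 6 dendritic cell, 10 macrophage and monocyte and 3 neutrophil markers. Of these, 1 passed the threshold with limma, as higher, where 0.664% of all genes tested did. Itgax, the integrin chain CD11c of dendritic cells and some macrophages, rose from 19.6 ± 2.71 to 60.1 ± 20.8 normalized counts (SD, n = 4 each), a log2 fold change of 1.52 with a standard error of 0.259 (limma adjusted p = 0.0402). Leaving out 1 liver moved Itgax out of the threshold in 7 of 8 cases (limma adjusted p from 0.0489 to 0.120), and the call was also lost with the animal series as a covariate (0.0755) and after quantile normalization (0.0606). It is also found on some NK and T cells, and which cells carried it was not measured.

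The CD3 chains had fitted values above 0 and wide intervals. Cd3e (ENSMUSG00000032093, chromosome 9, 44998740 to 45009627) encodes the epsilon chain that pairs with the gamma and delta chains of the receptor complex. Its normalized counts were 34.6, 27.2, 10.1 and 42.6 in Brap LKO replicates 1 to 4 and 27.4, 24.4, 26.3 and 6.87 in Brap F/F replicates 1 to 4. Each group held 1 liver far below its others, Brap LKO replicate 3 with 10 reads and Brap F/F replicate 4 with 7, and the groups overlapped. Its fitted log2 fold change was 0.41 (limma adjusted p = 0.723, 95% confidence interval -0.77 to 1.59), and without Brap F/F replicate 4 it was -0.031. Of its exon bases, 3.31% overlap Gm48719 on the opposite strand.

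Cd3g (ENSMUSG00000002033, chromosome 9, 44969572 to 44980431) encodes the gamma chain. It stood at 20.95, 17.0, 15.2 and 20.8 in Brap LKO livers and at 20.5, 7.12, 6.31 and 12.8 in Brap F/F livers. The Brap LKO livers were even among themselves, and Brap F/F replicate 1 lay within their range while the other 3 lay below it. The fitted difference was 0.75 on the log2 scale (limma adjusted p = 0.349, 95% confidence interval -0.06 to 1.55).

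The coreceptors were fitted higher in Brap LKO livers, with uneven Brap F/F livers. Cd4 (ENSMUSG00000023274, chromosome 6, 124864692 to 124888221) was counted at 77.4, 67.1, 83.0 and 87.4 in Brap LKO livers and at 77.5, 31.5, 38.9 and 80.5 in Brap F/F livers. Brap F/F replicates 1 and 4 lay within the range of the Brap LKO livers and replicates 2 and 3 below it. The fitted log2 difference was 0.56 (limma adjusted p = 0.392, 95% confidence interval -0.11 to 1.24). Besides helper T cells, CD4 is found on some dendritic cells and macrophages.

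Cd8a (ENSMUSG00000053977, chromosome 6, 71373427 to 71379173) had the largest fitted difference of the 10 genes, at low counts. It stood at 15.5, 14.4, 9.11 and 18.7 in Brap LKO livers and at 6.84, 1.02, 2.10 and 10.8 in Brap F/F livers, from 17, 17, 9 and 18 reads against 6, 1, 2 and 11. Groups overlapped through Brap LKO replicate 3 and Brap F/F replicate 4 alone. The mean was 14.4 ± 3.99 against 5.19 ± 4.51 (SD, n = 4 each), and the log2 fold change was 1.61 (limma unadjusted p = 0.0158 and adjusted p = 0.213, standard error 0.549, 95% confidence interval 0.38 to 2.85). The exact permutation test, two-sided, gave p = 0.0571. It stayed above 0 under every other setting in which it was tested, between 1.01 and 2.04, and passed the threshold under none (0) of 18. Its partner chain Cd8b1, with a mean of 2.96 normalized counts over the 8 livers, was too low to be tested. Its mean was 4.34 in Brap LKO livers and 1.58 in Brap F/F livers, and the groups overlapped. CD8 alpha without the beta chain is also carried by some dendritic cells and innate lymphocytes.

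Cd2 (ENSMUSG00000027863, chromosome 3, 101275899 to 101287939), the adhesion receptor that binds CD48 on partner cells, was counted at 14.6, 16.1, 7.08 and 12.5 in Brap LKO livers and at 10.3, 9.15, 3.15 and 6.87 in Brap F/F livers. Brap LKO replicate 3 lay within the Brap F/F range and the other 3 above it. Its log2 fold change was 0.74 (limma adjusted p = 0.390, 95% confidence interval -0.14 to 1.62).

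The cytotoxic granule genes Gzmb, Gzma and Nkg7 had groups that overlapped and 95% confidence intervals that included 0. Gzmb (ENSMUSG00000015437, chromosome 14, 56258838 to 56262260), a serine protease that cleaves caspases in the target cell, was counted at 7.29, 6.80, 11.1 and 23.9 in Brap LKO livers and at 5.70, 5.09, 8.41 and 13.7 in Brap F/F livers. In each group replicate 4 was the highest. The fitted difference was 0.45 on the log2 scale (limma adjusted p = 0.646, 95% confidence interval -0.55 to 1.44). Without Brap LKO replicate 4 it was 0.088, and with the animal series as a covariate 0.93. Gzma (ENSMUSG00000023132, chromosome 13, 113093825 to 113100981), the granzyme with tryptase activity, was at 4.55, 5.10, 2.02 and 13.5 in Brap LKO livers and at 0, 4.07, 6.31 and 5.89 in Brap F/F livers. Its highest liver was again Brap LKO replicate 4, with 13 reads, and its log2 fold change of 0.64 (limma adjusted p = 0.686, 95% confidence interval -0.97 to 2.24) became -0.030 without Brap F/F replicate 1, which had no read. With the animal series as a covariate it was 1.71 (adjusted p = 0.171 from limma).

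Nkg7 (ENSMUSG00000004612, chromosome 7, 43437073 to 43438249), a membrane protein of cytotoxic granules, was counted at 14.6, 13.6, 8.09 and 10.4 in Brap LKO livers and at 19.4, 7.12, 6.31 and 10.8 in Brap F/F livers. Brap F/F replicate 1 was the highest of all 8 livers. Its log2 fold change was 0.18 (limma adjusted p = 0.835, 95% confidence interval -0.65 to 1.01), and its sign depended on the setting.

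Klrb1c (ENSMUSG00000030325, chromosome 6, 128778485 to 128789215) encodes NK1.1, the receptor by which NK and NKT cells are recognized in C57BL/6 mice. Among the 10 genes, it alone had a fitted value below 0. Its normalized counts were 6.38, 0, 6.07 and 7.28 in Brap LKO livers and 3.42, 13.2, 10.5 and 3.92 in Brap F/F livers. Brap F/F replicates 2 and 3, which were low in Cd3g, Cd4 and Cd8a, were the highest here, and Brap LKO replicate 2 had no read. The fitted difference was -0.76 on the log2 scale (limma adjusted p = 0.632, 95% confidence interval -2.39 to 0.87). Without Brap LKO replicate 2 it was -0.032. Of the exon bases of Klrb1c, 13.9% are shared with Gm44511 on the same strand, so reads could be split between them.

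**Figure D2:**
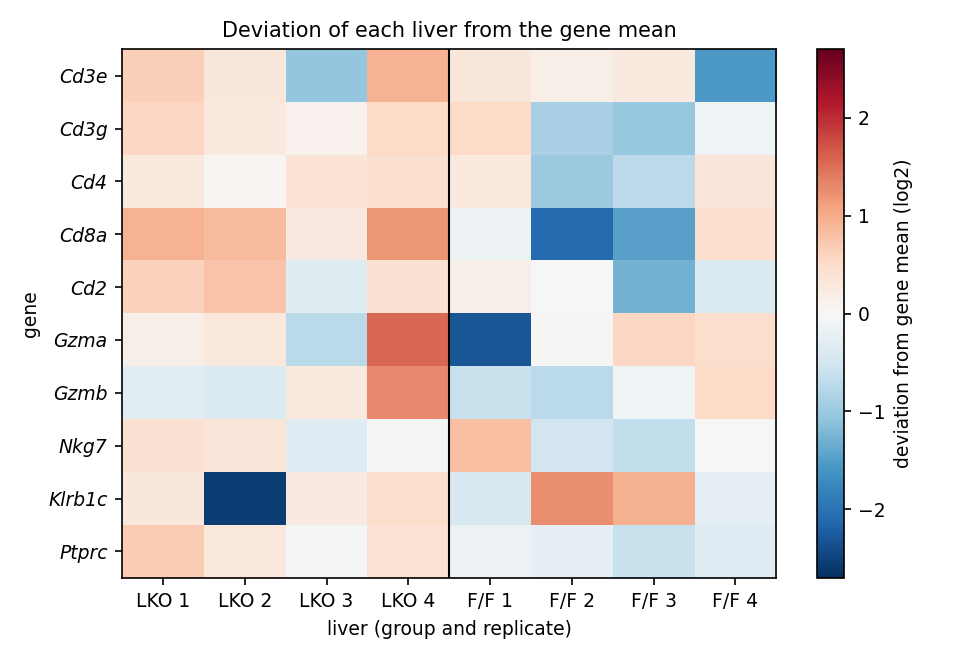
Deviation of each liver from the mean of the gene over 8 livers, in log2(normalized count + 1), for the 10 genes (rows) in 4 Brap LKO and 4 Brap F/F livers (columns), with red above and blue below the mean. Brap LKO replicates 1 and 4 have 9 of 10 genes above their mean and Brap F/F replicate 3 has 3, while Brap LKO replicate 3 and Brap F/F replicates 1 and 4 have 5 each.

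Read by liver, the 10 genes never all lay on the same side of their 8-liver means. Brap LKO replicates 1, 2 and 4 had 9, 8 and 9 of the 10 genes above their 8-liver mean, and Brap LKO replicate 3 had 5, as did Brap F/F replicates 1 and 4. Brap F/F replicates 2 and 3 had 4 and 3. The 9 genes other than Ptprc summed to 188 ± 37.5 normalized counts in Brap LKO livers and 134 ± 33.4 in Brap F/F livers (SD, n = 4 each), a ratio of 1.41, with ranges of 152 to 237 and 103 to 171 that overlapped. As a percentage of the Ptprc count of the same liver, uncorrected for length, this sum was 46.9% to 69.5% in Brap LKO livers and 45.9% to 74.9% in Brap F/F livers. Relative to Ptprc, the groups were therefore not apart.

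The 2 animal series were made here from the animal numbers in the labels, by a split at the largest gap between these numbers. The lower series held Brap LKO replicates 1 to 3 and Brap F/F replicate 1. The higher series held Brap LKO replicate 4 and Brap F/F replicates 2 to 4. Both are too small for tests of their own. In the lower series the sum of the 9 genes was 152 to 196 for Brap LKO and 171 for Brap F/F. In the higher series it was 237 for Brap LKO and 103 to 152 for Brap F/F. Ptprc was higher in the Brap LKO livers within both, at 251 to 417 against 234 and at 341 against 171 to 224. With the series as a covariate the log2 fold change of Ptprc was 0.62 (adjusted p = 0.239 from limma).

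Of 26 further T cell genes, 21 passed the filter on low values. Of these, 18 were fitted higher and 3 lower, with a median log2 fold change of 0.55, none (0) passed the threshold with limma, edgeR or DESeq2, and 4 had an unadjusted p-value under 0.05, all higher (9.23% of all genes tested). Groups were apart with Brap LKO above for 2 of the 21 (5.48% of all genes), of which 1 is described. Il7r, the interleukin 7 receptor that keeps naive and memory T cells alive, stood at 15.2 ± 3.73 against 8.69 ± 1.93 (limma adjusted p = 0.252, log2 fold change 0.74). The 3 most abundant by normalized count were Zap70, the kinase recruited to CD3 (283 ± 13.3 against 199 ± 54.5, log2 fold change 0.55, adjusted p = 0.182 from limma), Themis, a signaling adaptor of thymocytes (200 ± 62.1 against 187 ± 146, 0.60, adjusted p = 0.696), and Tcf7, a transcription factor of T cells and innate lymphocytes (178 ± 31.9 against 152 ± 20.4, 0.22, adjusted p = 0.520). Themis was uneven in Brap F/F livers, at 25.5 in replicate 4 and at 104 to 333 in the others. Per kilobase, Zap70 stood at 107, Tcf7 at 66.8, Themis at 38.1 and Cd3e at 17.1 normalized counts over the 8 livers. Which cells carried the Zap70, Tcf7 and Themis reads was not measured. The regulatory T cell factor Foxp3 and the inhibitory receptors Ctla4 and Pdcd1 were too low to be tested, with means of 3.38, 0.480 and 0.815.

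Of 22 further NK and cytotoxic genes, 10 passed the filter. Of these, 9 were fitted higher and 1 lower, with a median log2 fold change of 0.37, and none (0) passed the threshold with limma, edgeR or DESeq2. At an unadjusted p-value under 0.05, 0 were higher (9.23% of all genes tested) and 1, Zbtb16, was lower (6.59%). Zbtb16, the factor PLZF of NKT and other innate-like lymphocytes, was at 1584 ± 1123 in Brap LKO livers and 3218 ± 1181 in Brap F/F livers (limma adjusted p = 0.291, log2 fold change -1.26). At 470 normalized counts per kilobase against 3.83 for Klrb1c over the 8 livers, its cells of origin were not measured. Ccl5, a chemokine of activated T and NK cells, was at 35.9 ± 6.79 against 25.0 ± 6.67 (0.52, adjusted p = 0.332), and Il2rb, the beta chain of the interleukin 2 and 15 receptors, at 80.6 ± 12.9 against 70.5 ± 29.8 (0.31, adjusted p = 0.685). The defining NK genes Ncr1, Eomes, Tbx21 and Prf1 had means of 3.02, 1.25, 4.97 and 3.74 and were too low to be tested. Means in Brap LKO and Brap F/F livers were 4.64 and 1.39 for Ncr1, and 1.46 and 1.04 for Eomes. For Tbx21 they were 6.00 and 3.95, and for Prf1 5.13 and 2.36, and the groups overlapped for each. Ifng went the other way, with 0 reads in all 4 Brap LKO livers and 3, 3, 1 and 3 in Brap F/F livers. These values do not exceed the floor of 3 reads, and Ifng was too low to be tested with limma.

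**Figure D3:**
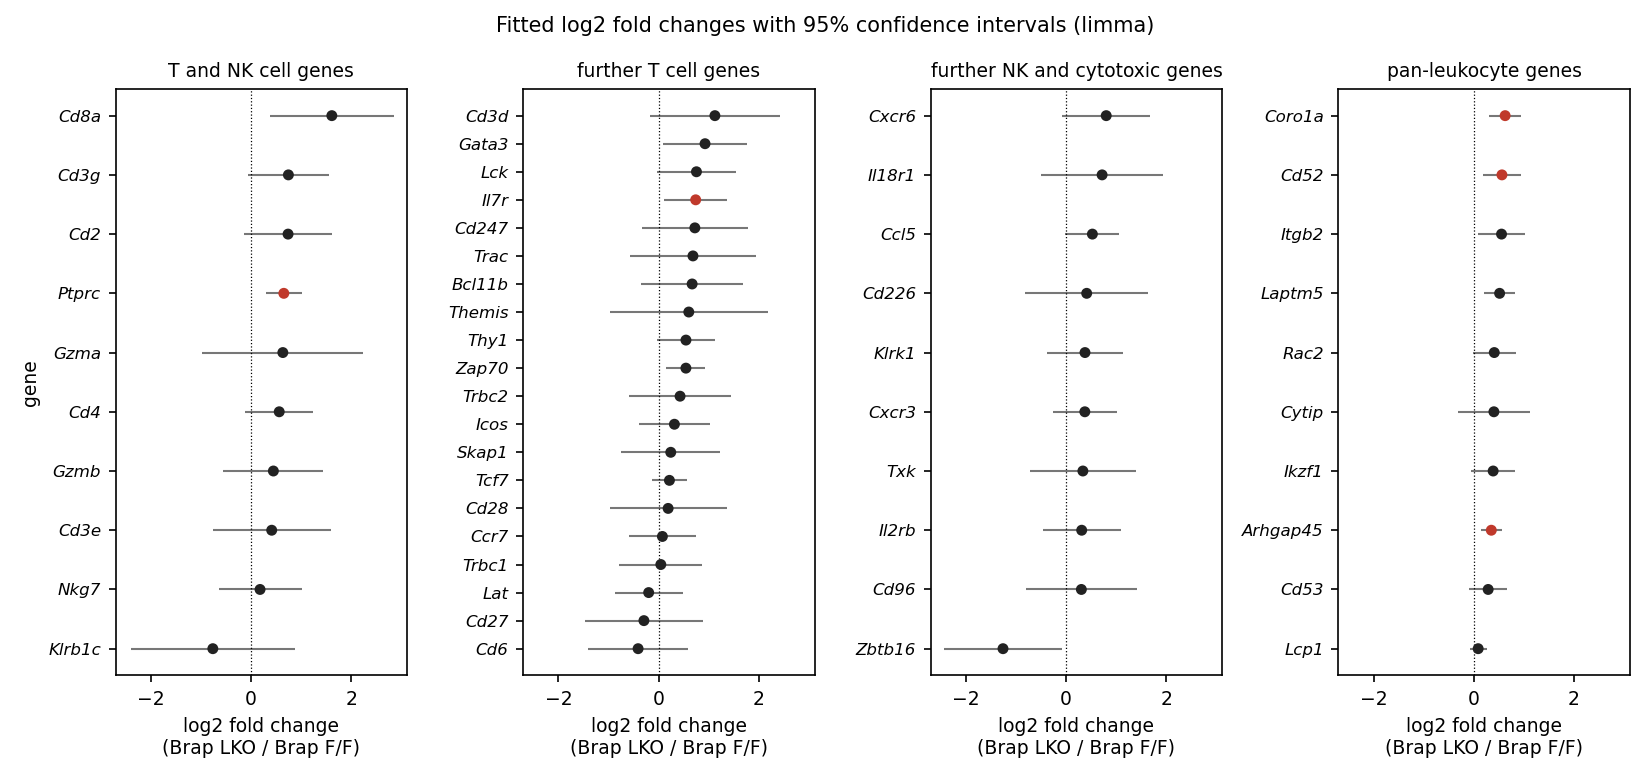
Fitted log2 fold changes (points, Brap LKO over Brap F/F) with 95% confidence intervals from limma (lines) for the tested genes of 4 lists (1 further T cell gene is not drawn), with red points where each Brap LKO liver exceeds each Brap F/F liver. Fitted values are above 0 for 9 of 10 T and NK cell genes, 18 of 21 further T cell genes, 9 of 10 further NK and cytotoxic genes and 10 of 10 pan-leukocyte genes, and none of these 51 tested genes passed the threshold.

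**Figure D4:**
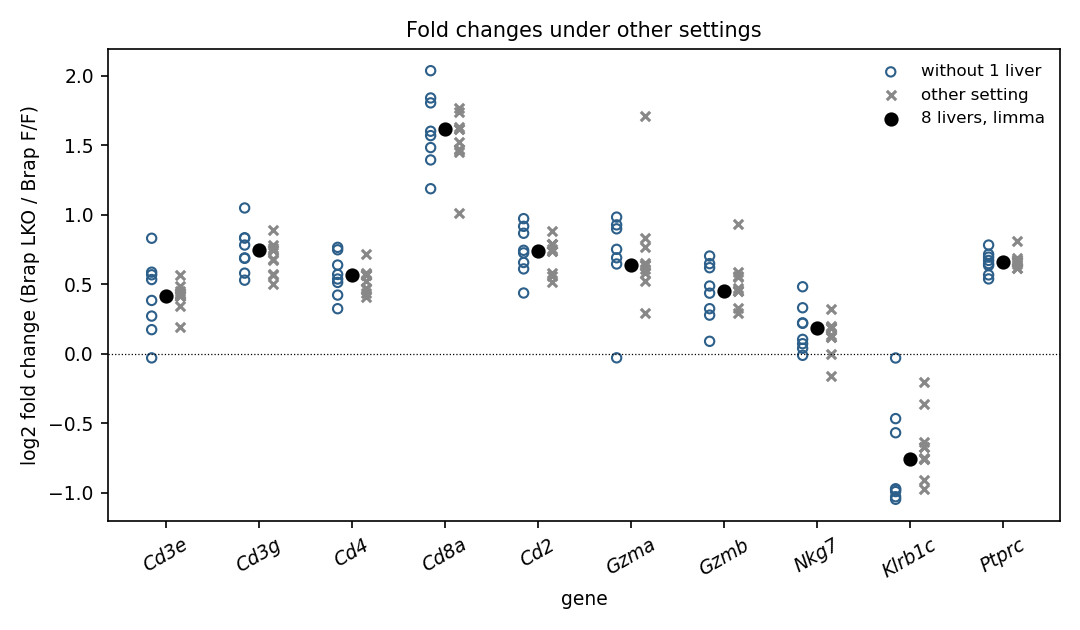
Log2 fold change (Brap LKO over Brap F/F) of the 10 genes with all 8 livers (black), without 1 liver (open circles) and under other normalizations, filters, covariates and count tests (crosses). Cd3g, Cd8a, Cd4, Gzmb, Cd2 and Ptprc stay above 0 and Klrb1c below 0 in each, while Cd3e, Gzma and Nkg7 cross 0.

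Across the 19 other settings, the fitted values of Cd3g, Cd4, Cd8a, Cd2, Gzmb and Ptprc stayed above 0 wherever they were tested and that of Klrb1c below 0. Ptprc moved least, between 0.54 and 0.81, and it passed the threshold in 2 of the 19. Cd3e ranged from -0.031 to 0.83 and Gzma from -0.030 to 1.71. No other member passed the threshold under any setting.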

How the data were processed

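RNA of the left liver lobe was sequenced from 4 Brap LKO and 4 Brap F/F mice. The authors aligned single-end reads of 50 bases to mm10 with STAR 2.6.0c and divided gene counts by DESeq2 size factors, and the deposited signal is this normalized count per gene and liver. The counting tool, annotation release and strand setting are not given in the sources used here. All values (100%, tolerance 0.001 reads) were whole multiples of the smallest value of their liver, so reads were recovered (0 value columns left out). The deposited DESeq2 comparison (mean, fold change, error, p-values) was not used.

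The groups were compared with limma 3.58.1 in R 4.3.3 (trend) on log2(normalized count + 1) for genes with a mean of at least 5, without covariates, with Benjamini-Hochberg adjustment over all genes tested at 0.05. The study used DESeq2, which needs counts, so edgeR 4.0.16 and DESeq2 1.42.0 on recovered reads were alternatives. For single genes an exact permutation test (two-sided, 70 arrangements) was added. The scripts were tested on simulated data. Floors and counts cover counting error only. Positions, lengths (transcript with the longest coding sequence) and overlaps came from GENCODE M21 (GRCm38). Genes named are the 10 members, listed genes past the threshold, the 3 most abundant of each leukocyte list, defining markers of other cells and the 5 genes with the most alike pattern, together with Brap. Il7r, Coro1a, Cd52, Cd79b, Fcrla, Ccr2, Ifng, Ly6g and the genes given as too low to be tested were named after their values were seen. Values of some listed genes are not reported here. Members and lists were chosen with earlier results of these data known. The alternatives also included pseudocounts of 0.5 and 5, a minimum mean of 0 or 20, the same total per liver, TMM factors, quantile normalization, the replicate number or the animal series as a term, and leaving out each liver. The animal series is a split of the livers at the largest gap between their animal numbers, made here and not given as a batch.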

Additional observations from a re-analysis of the deposited data

Results flagged for a closer look

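In 5 of the 78 groups of 4 livers examined for 39 named genes, 1 liver lay far from the others when its distance to the nearest of them was divided by the range of all 4, and about 3.9 such groups would come by chance (1 in 20). Cd3e was at 6.87 in Brap F/F replicate 4 and between 24.4 and 27.4 in the rest of that group. Klrb1c had a normalized count of 0 in Brap LKO replicate 2, while the rest of that group lay between 6.07 and 7.28. Flt3, the cytokine receptor of dendritic cell precursors, was at 14.7 in Brap F/F replicate 3 and at 6.84 to 7.12 in the others. Pf4, a platelet chemokine, was at 2.03 in Brap F/F replicate 2 and at 6.31 to 6.87 in the others. Tnfrsf11a was at 43.2 in Brap F/F replicate 4 and at 29.6 to 31.5 in the others. The first 4 of these rest on few reads.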

How the results depend on the processing

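The number of T and NK cell genes past the threshold was 0 in the comparison with limma and under 17 of 19 other settings, and 1 (Ptprc) under DESeq2 and with the same total per liver. The number of further T, NK and pan-leukocyte genes past it was 3 under DESeq2, 2 with the same total per liver and 0 otherwise. The number of all genes past it (118) was 625 under DESeq2, 479 with the same total per liver and 78 after quantile normalization, and it lay between 18 and 232 with 1 liver left out. For Brap LKO replicates 1 to 4 in turn, leaving the liver out gave 18, 54, 29 and 21, and for Brap F/F replicates 1 to 4 it gave 48, 18, 34 and 232. Fewer livers were compared in these fits, and the other causes were not tested. Of the calls, 86.4% were higher with limma, 72.8% under DESeq2 and 95.8% with the same total. The median of the 10 genes lay between 0.43 and 0.81. Log2 fold changes changed sign for Cd3e without Brap F/F replicate 4 (-0.031; range with 1 liver left out -0.031 to 0.83), for Gzma without Brap F/F replicate 1 (-0.030; range -0.030 to 0.98) and for Nkg7 without Brap F/F replicate 3 (-0.012; range -0.012 to 0.48), with the animal series as a covariate (-0.16) and after quantile normalization (-0.00011). In each of these the limma adjusted p was at least 0.893. With a minimum mean of 20, 3 of the 10 genes were tested, and without Brap LKO replicate 4 Gzma was not.

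Correlations of deviations between same-numbered livers were -0.129, 0.00336, 0.196 and 0.292. They were not set against those of differently numbered livers, so they cannot show whether replicate numbers pair the livers. With the replicate number as a block, 95 genes and 0 of the 10 passed the threshold, and Ptprc had an adjusted p of 0.0548 from limma. Gzma, Klrb1c and Cd8a had few reads, for Cd8a 61 in all Brap LKO livers and 20 in all Brap F/F livers. Their intervals span over 2 log2 units, as does that of Cd3e, which had more reads and an uneven liver in each group. With similar reads to Cd8a, Cd2 (54 and 28) had an interval of -0.14 to 1.62 and Gzmb (50 and 32) one of -0.55 to 1.44. What set the width of the intervals was not tested.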

Other observations

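Of 9 B and plasma cell markers, 3 had groups that were apart with Brap LKO above, Ms4a1, Cd79b and Fcrla (5.48% of all genes tested). None (0) of the 9 passed the threshold with limma and 3 were higher at an unadjusted p-value under 0.05 (9.23% of all genes), while DESeq2 called Ms4a1 as higher (3.02% of all genes). Ms4a1, the B cell surface protein CD20, was at 15.6 ± 4.92 against 4.19 ± 3.08 (SD, n = 4 each; limma adjusted p = 0.113, log2 fold change 1.83). Cd79a, a chain of the B cell receptor, was at 14.3 ± 6.55 against 8.59 ± 2.12 and did not pass the threshold (limma adjusted p = 0.451). Of the monocyte genes, Ccr2, the receptor for CCL2, stood at 53.7 ± 10.9 against 25.3 ± 3.67 with groups apart (log2 fold change 1.05, adjusted p = 0.0566 from limma; DESeq2 adjusted p = 0.00254). The Kupffer cell lectin Clec4f was fitted at 0.02 on the log2 scale (limma adjusted p = 0.960) and the macrophage marker Adgre1 at 0.44 (adjusted p = 0.327).

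Other defining markers gave log2 fold changes of 0.62 for Ly6c2, 0.07 for S100a8, 0.60 for S100a9, 0.93 for Flt3, 0.94 for Xcr1, -0.06 for Hbb-bs, 0.80 for Pf4 and -0.52 for Alb, and none of these genes passed the threshold with limma. Of 7 red blood cell and platelet markers, 3 were fitted higher and 4 lower, and of 6 hepatocyte markers 2 higher and 4 lower.

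Among 12685 genes outside the lists whose normalized count averaged 20 or more, those whose deviations over the 8 livers lay closest to the mean deviation of the 10 genes were Atxn1, Mturn, Ctss, Tnfrsf11a and Rell1, with a root mean square difference of 0.111 to 0.132 on the log2 scale. That mean deviation averaged 0.26 in Brap LKO livers and -0.26 in Brap F/F livers, so the group differences of these genes follow from how they were chosen. Their log2 fold changes with limma were 0.62 for Atxn1, 0.61 for Mturn, 0.50 for Ctss, 0.57 for Tnfrsf11a and 0.41 for Rell1. Ctss, a lysosomal protease of antigen-presenting cells, was at 1005 ± 202 in Brap LKO livers and 707 ± 106 in Brap F/F livers (limma adjusted p = 0.188).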
